A study of Sus scrofa with 29 samples.

Results

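The Toll-like receptors (TLRs) were followed in RNA from the inner lining of 2 arteries of healthy pigs. They were taken as the probe sets whose symbol in the array's annotation is TLR1 to TLR10. Of the 10 receptors, 6 had a probe set by symbol (TLR1, TLR2, TLR4, TLR6, TLR8 and TLR9), 6 of the 6765 genes named on the array, and together they had 11 of its 23999 probe sets other than controls. TLR4 had 5 probe sets, TLR1 had 2 and the rest had 1 each. TLR3, TLR5, TLR7 and TLR10 had none by symbol and were not analysed here.

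The samples were luminal scrapes, enriched in endothelial cells, of the brachial artery of the foreleg and the internal mammary artery, which runs inside the chest wall, hybridised to single-colour porcine oligonucleotide arrays. Exercised pigs were trained on a treadmill for 16 to 20 weeks, on 5 days of each week in bouts of 85 min. Their arteries were taken 24 h after training ended, while sedentary pigs were kept in confinement. There were 7 exercised and 7 sedentary brachial arrays, and 8 exercised and 7 sedentary internal mammary arrays. Of the 15 pigs behind these 29 arrays, 14 are represented by both vessels and 1 (exercised) by its internal mammary artery only. The labels used here state no age or genetic modification.

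TLRs are membrane receptors that recognise conserved microbial molecules and some molecules released from damaged cells. TLR1, TLR2, TLR4 and TLR6 act at the cell surface, where TLR2 pairs with TLR1 or TLR6 to bind lipoproteins and TLR4 binds lipopolysaccharide with MD-2 (LY96). TLR8 and TLR9 act in endosomes, on single-stranded RNA and on unmethylated CpG DNA. Adaptors such as MYD88 pass the signal to kinases and to NF-κB, AP-1 and interferon regulatory factors, which induce cytokines, chemokines and adhesion molecules. Endothelial cells and macrophages both express TLRs, TLR4 prominently so in endothelium.

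Most endothelial markers were bright in the scrapes. PECAM1 lay at percentile 99.8 of all probe sets by mean value, and CDH5, NOS3 and TEK each lay at percentile 98.0. Of the 12 measured, VWF at percentile 54.5 and KDR at 11.5 were dimmer, and the other 10 lay at percentile 90.2 or above. Most smooth muscle markers were bright as well, with ACTA2 at percentile 99.6, though MYLK lay at 56.7. Macrophage markers ran from percentile 41.0 (MRC1) to 96.7 (LAPTM5), with C1QC at 88.0. Fibroblast markers ran from percentile 35.0 (COL3A1) to 98.2 (LUM). In such mixed scrapes, fewer cells of a type and less RNA per cell cannot be told apart.

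Array values are on the log2 scale, so 1 unit is a doubling, and the brightness of different probe sets does not rank their transcripts. Each probe set is therefore described against itself. A value after ± is the SD for a group mean and the SE for a log2 change. Changes come from limma fitted over all 23999 probe sets with pig as a random block, and p-values carry the Benjamini-Hochberg adjustment over all of them. A probe set is said to have passed, risen or fallen where the adjusted p was under 0.05. Arrays have no read depth, and their number is among the limits on precision.

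The first question was whether TLR transcripts differed between exercised and sedentary pigs. In the brachial artery 0 of 11 TLR probe sets passed by limma, and 0 had an unadjusted p under 0.05. Over all probe sets 1.63% passed (1.02% higher and 0.613% lower with training) and 15.4% had an unadjusted p under 0.05. In the internal mammary artery 0 of 11 passed, where 0.596% of all probe sets did (0.458% higher and 0.138% lower), and 1 had an unadjusted p under 0.05, against 12.3% of all. Averaged over both arteries 0 of 11 passed, where 4.68% of all probe sets did (2.88% higher and 1.8% lower), and 1 had an unadjusted p under 0.05, against 18.5% of all. That probe set was TLR2 both times. The exercised and sedentary arrays fell into groups without overlap for 0 of 11 TLR probe sets in each artery, where the share over all probe sets was 0.604% for brachial and 0.288% for internal mammary arrays, so a count of 0 is near the background. The median TLR change was 0.05 for the brachial artery and 0.15 for the internal mammary artery, beside medians of 0.01 over all probe sets in both.

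**Figure D1:**
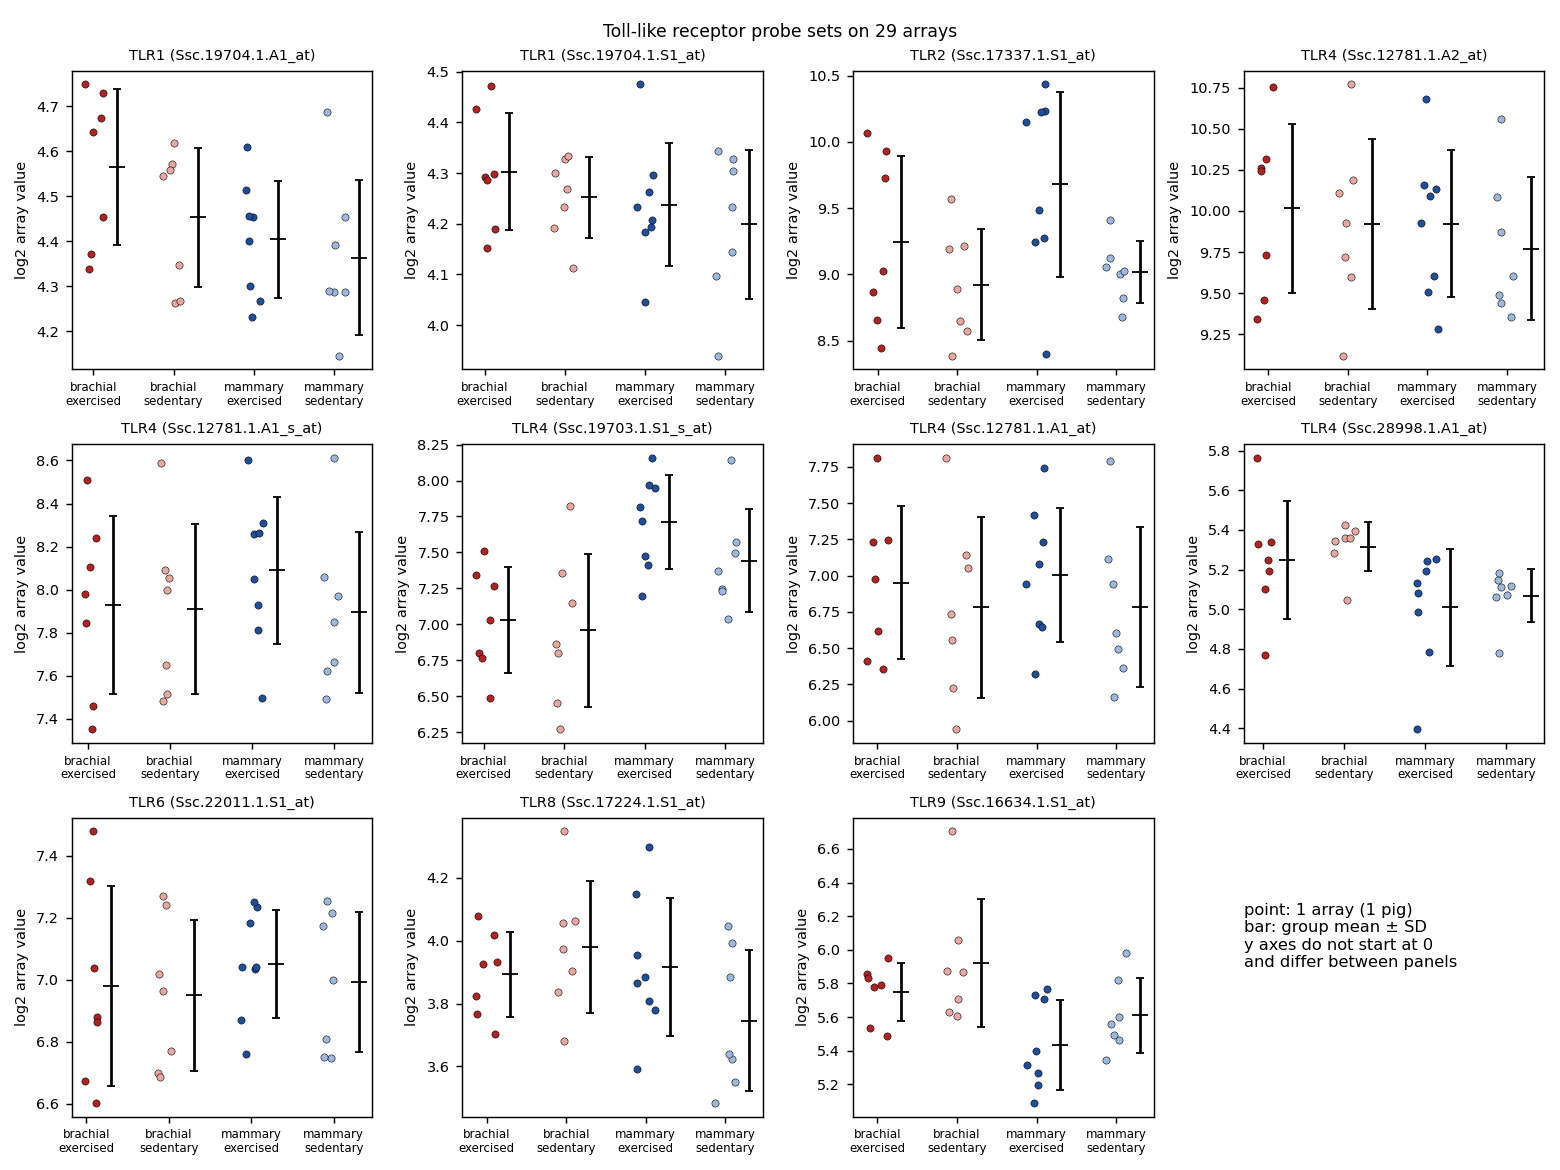
Log2 array values (y axis, not starting at 0 and differing between panels) of the 11 TLR probe sets in the 4 groups. Each point is 1 array and bars give the group mean ± SD. Exercised and sedentary arrays overlap in every panel, and TLR2 reaches 10.43 in exercised internal mammary arteries, where the sedentary maximum is 9.41.

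TLR2, the receptor for bacterial lipoproteins, had the largest exercise change of the 11. In the internal mammary artery its lowest, median and highest values were 8.40, 9.82 and 10.43 in exercised pigs, against 8.68, 9.03 and 9.41 in sedentary pigs. Of the 8 exercised pigs 5 lay above every sedentary pig, and 1, pig 14_3, lay below all of them. The exercised values were also more spread, with a mean of 9.68 ± 0.70 (n = 8) against 9.02 ± 0.23 (n = 7) in sedentary pigs. The log2 change was 0.66 ± 0.25 (95% interval 0.16 to 1.17), and it did not pass (limma adjusted p = 0.225). In the brachial artery TLR2 had a lowest, median and highest value of 8.45, 9.03 and 10.07 in exercised pigs and 8.39, 8.89 and 9.57 in sedentary pigs. There 3 of 7 exercised pigs lay above all sedentary pigs, and the change was 0.34 ± 0.25 (limma adjusted p = 0.576).

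Averaged over both arteries the TLR2 change was 0.50 ± 0.20 (limma adjusted p = 0.15). This call turned on 1 animal. Without pig 14_3, which had the lowest exercised value in both arteries, the change was 0.66 ± 0.17 averaged over the arteries (limma adjusted p = 0.0273) and 0.85 ± 0.21 in the internal mammary artery (limma adjusted p = 0.0499). Without any other single pig TLR2 did not pass in either comparison. The 28S/18S ratio of the labels, a measure of RNA integrity, moved with training in the same artery: its lowest, median and highest values were 1.25, 1.31 and 1.47 in exercised and 1.07, 1.18 and 1.29 in sedentary internal mammary samples. With that ratio as a covariate the TLR2 change was 0.77 ± 0.26 in the internal mammary artery (limma adjusted p = 0.145) and 0.57 ± 0.21 in the average (limma adjusted p = 0.106). The ratio overlapped between the internal mammary groups only from 1.25 to 1.29, so this fit cannot tell it apart from training. CD79B, the 1 measured B cell marker, rose with training in the same comparisons, by 1.46 ± 0.31 in the internal mammary artery (limma adjusted p = 0.0244) and 1.06 ± 0.24 in the average (limma adjusted p = 0.011), and gave 0.66 ± 0.31 in the brachial artery (limma adjusted p = 0.313). Its part in the TLR2 values was not tested.

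TLR4, the lipopolysaccharide receptor, showed no exercise change that passed in any of its 5 probe sets. For the brightest, Ssc.12781.1.A2_at, the lowest, median and highest brachial values were 9.34, 10.25 and 10.75 in exercised pigs and 9.12, 9.93 and 10.77 in sedentary pigs. Its internal mammary values were 9.28, 10.01 and 10.68 in exercised pigs and 9.35, 9.60 and 10.56 in sedentary pigs. The groups covered almost the same range in each artery. The changes were 0.08 ± 0.24 and 0.15 ± 0.23 (limma adjusted p = 0.911 and 0.858), with 95% intervals of -0.40 to 0.57 (brachial) and -0.32 to 0.62 (internal mammary), and changes within these bounds could not be told from none with this number of pigs. The other 4 TLR4 probe sets gave changes between -0.07 and 0.27.

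TLR9, the endosomal receptor for CpG DNA, gave negative values of similar size in both arteries, none of which passed. Its brachial values had a lowest, median and highest of 5.48, 5.79 and 5.95 in exercised pigs and 5.61, 5.87 and 6.71 in sedentary pigs. In the internal mammary artery they were 5.09, 5.36 and 5.77 in exercised pigs and 5.34, 5.56 and 5.98 in sedentary pigs, with 4 of 8 exercised pigs below every sedentary pig. The change was -0.18 ± 0.13 in each artery (limma adjusted p = 0.58 for brachial and 0.642 for internal mammary arrays) and -0.18 ± 0.10 in their average (limma adjusted p = 0.388).

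The remaining receptors gave small values. TLR8, an endosomal receptor for single-stranded RNA, gave -0.09 ± 0.11 for the brachial artery and 0.17 ± 0.11 for the other (limma adjusted p = 0.781 and 0.566). TLR6, a partner of TLR2, gave 0.03 ± 0.12 and 0.06 ± 0.12, and the other partner, TLR1, gave between 0.04 and 0.11 over its 2 probe sets and both arteries. The TLR1 and TLR8 probe sets were dim, at percentiles 10.3 to 15.2 of all probe sets, and whether they stood above background could not be read from the values used here.

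**Figure D2:**
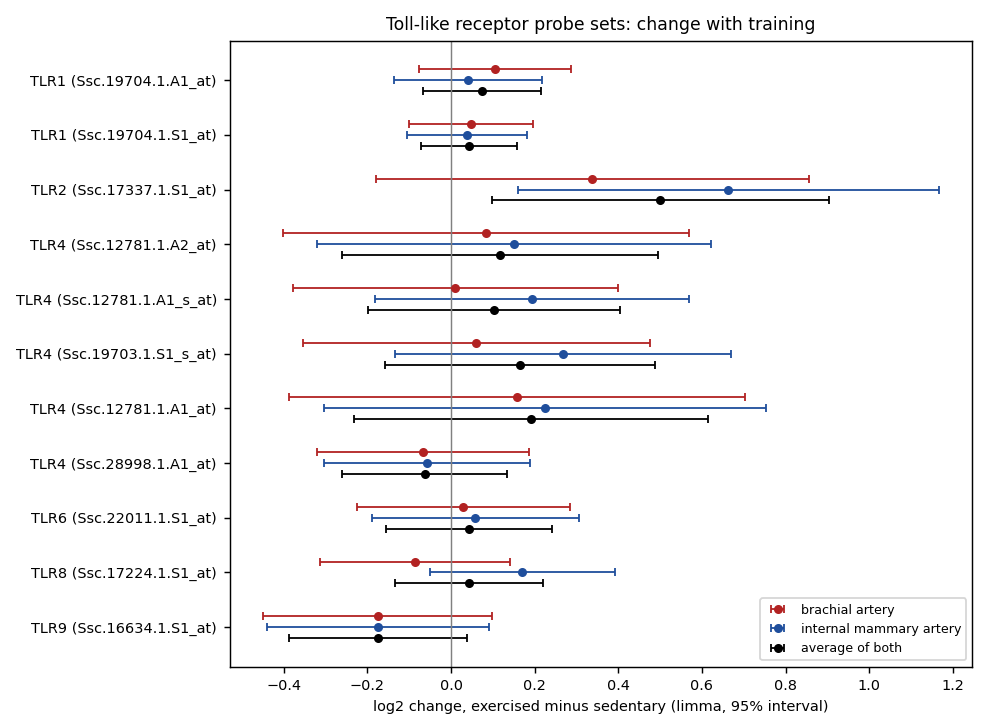
Log2 change, exercised minus sedentary (x axis), with its 95% interval for each TLR probe set in the brachial artery, the internal mammary artery and their average. Every interval crosses 0 except those of TLR2 in the internal mammary artery (0.16 to 1.17) and in the average (0.10 to 0.90), and none passed after adjustment.

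Whether training acted differently on the TLRs of the 2 arteries was tested as the difference of the exercise changes. By limma 0 of 11 TLR probe sets passed and 0 had an unadjusted p under 0.05, and 0% of all probe sets passed, with 4.31% at an unadjusted p under 0.05. TLR2 gave -0.33 ± 0.31 (brachial minus internal mammary, 95% interval -0.95 to 0.30) and TLR8 gave -0.26 ± 0.13 (-0.53 to 0.02). TLR9 gave 0.00 ± 0.16.

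The second question was whether TLR transcripts differed between the arteries of the same pigs. Averaged over exercised and sedentary pigs, 2 TLR probe sets were higher and 1 was lower in the brachial artery, which is 27.3% of the 11, while 54.3% of all probe sets differed between the arteries (31.8% higher, 22.5% lower). In exercised pigs 1 was higher and 1 lower (18.2%, against 41.2% of all probe sets, 24.2% higher and 17% lower), and in sedentary pigs 1 was higher and 1 lower (18.2%, against 34.8% of all, 20.5% higher and 14.2% lower). The TLR shares were thus no larger than the background in any of these comparisons. The probe sets that passed in the average were those of TLR9 and 2 of TLR4, which lay in opposite directions.

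TLR9 was higher in the brachial artery by its 1 probe set. That probe set was dim, at percentile 29.4, and was removed by the filter on the dimmest 33.3% of probe sets. Whether it stood above background could not be read from the values used here. The difference within a pig ran from -0.20 to 0.72 with a median of 0.29, and the brachial value was the higher one in 13 of 14 pigs. The log2 difference was 0.31 ± 0.08 (limma adjusted p = 0.00182), 0.31 ± 0.11 in exercised pigs (limma adjusted p = 0.0274) and 0.31 ± 0.12 in sedentary pigs (limma adjusted p = 0.0363). Pig 12_3 had the highest sedentary brachial value, 6.71, and also the highest macrophage marker mean of that group (0.803 on the log2 scale relative to the mean of all arrays). With that marker mean added to the model the averaged TLR9 difference was 0.39 ± 0.08 (limma adjusted p = 0.000259).

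The TLR9 difference within either group of pigs was less firm than their average. Without pig 10_5, 14_3 or 15_4 it no longer passed in exercised pigs (0.27, 0.29 and 0.27). Without pig 10_2, 11_1, 12_3, 15_1 or 17_1 it no longer passed in sedentary pigs (0.30, 0.31, 0.24, 0.32 and 0.32). With no replicate block and with quantile normalization it passed in neither (0.31 and 0.25 in exercised, 0.31 and 0.26 in sedentary pigs), and with the 28S/18S ratio in the model it did not pass in sedentary pigs (0.33 ± 0.13, limma adjusted p = 0.0687). In the 8 pigs with the first dates the exercised difference was 0.19 ± 0.20 (limma adjusted p = 0.517). The sedentary difference passed neither in these 8 (0.39 ± 0.18, limma adjusted p = 0.157) nor in the 7 last (0.20 ± 0.14, limma adjusted p = 0.361). The average over both groups passed without each of the 15 pigs and, of the 2 sets of pigs split by date, not in the 8 first (0.29 ± 0.13, limma adjusted p = 0.102).

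**Figure D3:**
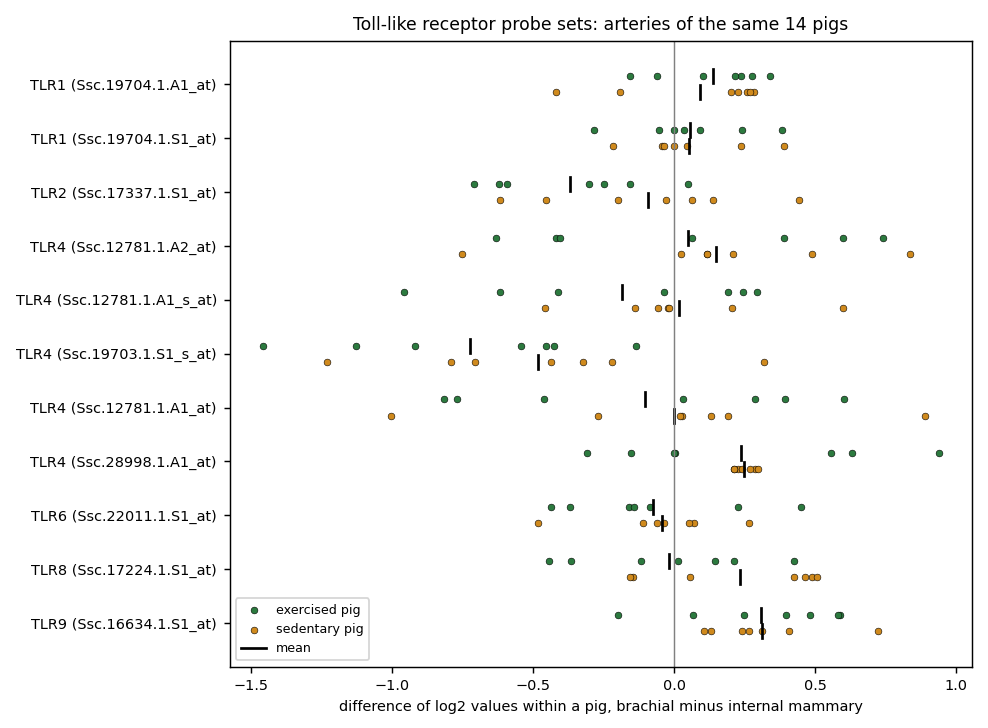
Difference of log2 values within a pig, brachial minus internal mammary (x axis), for each TLR probe set in 7 exercised and 7 sedentary pigs, with group means as black bars. TLR9 lies above 0 in 13 of 14 pigs and TLR4 probe set Ssc.19703.1.S1_s_at lies below 0 in 13 of 14.

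The TLR4 probe sets did not give 1 answer. Probe set Ssc.19703.1.S1_s_at had a lowest, median and highest value of 6.49, 7.03 and 7.51 in brachial and 7.20, 7.77 and 8.16 in internal mammary arteries of exercised pigs. In sedentary pigs the values were 6.27, 6.87 and 7.82 in brachial and 7.04, 7.37 and 8.14 in internal mammary arteries. The brachial value was the lower one in 7 of 7 exercised and 6 of 7 sedentary pigs. The log2 difference was -0.59 ± 0.12 averaged over the pigs (limma adjusted p = 0.000201), -0.69 ± 0.17 in exercised pigs (limma adjusted p = 0.00186) and -0.48 ± 0.18 in sedentary pigs (limma adjusted p = 0.0321). In sedentary pigs it no longer passed without pig 10_2, 11_4, 13_2 or 17_1 (-0.36, -0.45, -0.43 and -0.49), nor with no replicate block (-0.48 ± 0.20), median centring (-0.44 ± 0.18) or quantile normalization (-0.45 ± 0.18). With the 28S/18S ratio in the model the sedentary difference was -0.18 ± 0.17 (limma adjusted p = 0.46); that ratio had a lowest, median and highest of 1.21, 1.31 and 1.79 in brachial and 1.07, 1.18 and 1.29 in internal mammary samples of sedentary pigs. In the 7 pigs with the last dates the averaged difference was -0.35 ± 0.14 (limma adjusted p = 0.0648), and the exercised one was -0.39 ± 0.18 (limma adjusted p = 0.132). The sedentary difference passed in neither set of pigs split by date (limma adjusted p = 0.098 in the first and 0.359 in the last).

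The 3 TLR4 probe sets numbered Ssc.12781.1 gave averaged artery differences of 0.12 ± 0.14, -0.08 ± 0.11 and -0.03 ± 0.16, none of which passed (limma adjusted p = 0.518, 0.597 and 0.87). The brightest of them, Ssc.12781.1.A2_at, passed with the 28S/18S ratio in the model (0.37 ± 0.14, limma adjusted p = 0.028) and with the smooth muscle marker mean (0.30 ± 0.11, limma adjusted p = 0.0196). The fifth, Ssc.28998.1.A1_at, was higher in the brachial artery, by 0.24 ± 0.07 (limma adjusted p = 0.00708), in 11 of 14 pigs. In the 7 sedentary pigs its difference kept to a narrow range of 0.21 to 0.30, while in the 7 exercised pigs it ran from -0.31 to 0.94. With the arrays quantile-normalized again the averaged difference was 0.16 ± 0.07 and did not pass (limma adjusted p = 0.0827). Nor did it pass in the 8 pigs with the first dates (0.175 ± 0.08, limma adjusted p = 0.111) or the 7 with the last (0.30 ± 0.13, limma adjusted p = 0.0889). No direction between the arteries can therefore be given for TLR4 as a gene.

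Across arrays, 4 of the 5 TLR4 probe sets moved together. With group means removed, the 3 Ssc.12781.1 probe sets and Ssc.19703.1.S1_s_at had pairwise Pearson correlations of 0.92 to 0.97 over 29 arrays. Ssc.28998.1.A1_at, the dimmest of the 5 at percentile 22.8, had correlations of -0.09 to 0.00 with them. These arrays share pigs, so the correlations are given as descriptions. The 4 group means of Ssc.12781.1.A2_at lay within 0.24 of each other, beside SDs of 0.43 to 0.52 within a group, and its artery difference within a pig had an SD of 0.50 over 14 pigs.

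**Figure D4:**
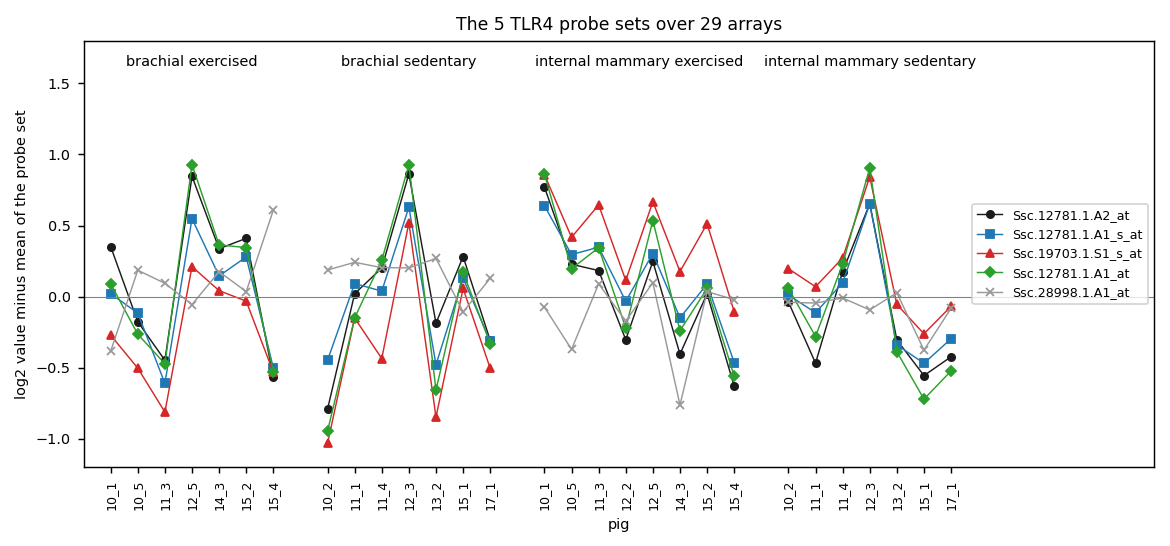
Log2 value of each TLR4 probe set minus its own mean (y axis) on the 29 arrays, ordered by group and pig. The 4 brighter probe sets rise and fall together over the pigs, with Ssc.19703.1.S1_s_at shifted down in the brachial arrays, and Ssc.28998.1.A1_at follows none of them.

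The other receptors did not pass between the arteries. TLR2 had the lower value in the brachial artery in 6 of 7 exercised and 4 of 7 sedentary pigs, with differences of -0.42 ± 0.21 in exercised and -0.09 ± 0.22 in sedentary pigs (limma adjusted p = 0.118 and 0.774). With pig as a fixed block TLR2 passed in exercised pigs (-0.37 ± 0.11, limma adjusted p = 0.0193) and in the average (-0.23 ± 0.08, limma adjusted p = 0.0254). TLR8 was 0.23 ± 0.10 higher in the brachial artery of sedentary pigs (limma adjusted p = 0.0587) and gave -0.02 ± 0.09 in exercised pigs. TLR1 probe set Ssc.19704.1.A1_at gave 0.12 ± 0.05 in the average (limma adjusted p = 0.0547), and TLR6 gave -0.06 ± 0.08.

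In the order of the 4 group means, most neighbours lay closer together than the SD within a group. TLR2 ran downward through exercised internal mammary, exercised brachial, sedentary internal mammary and sedentary brachial arteries, and none of its 3 steps exceeded that SD. TLR9 ran downward through sedentary brachial, exercised brachial, sedentary internal mammary and exercised internal mammary arteries. In the reference gene table TLR10, TLR1 and TLR6 lie next to each other, as do TLR8 and TLR7. It lists TLR6 as another name of the TLR1 gene and TLR7 as another name of the TLR8 gene. The probe sets keep the symbols of the array's annotation here, and whether they also pick up a neighbouring receptor was not tested.

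For each receptor the genes most like it were taken as the 3 with the highest Pearson correlation over the 29 arrays. The brightest TLR4 probe set was most like CHIC2 (0.845), the endothelial and haematopoietic transcription factor HHEX (0.768) and TICAM2 (0.753), the adaptor TRAM that acts downstream of TLR4. TLR2 was most like LOC100626015 (0.758), KATNBL1 (0.754) and the growth factor TGFB2 (0.729). TLR9 was most like the RNA polymerase subunit POLR1C (0.827), the pseudouridine synthase PUS1 (0.797) and the interferon receptor chain IFNAR2 (0.786). For TLR1, TLR6 and TLR8 the highest values were 0.708 (SPR), 0.719 (ADGRA3) and 0.614 (GNG3). These are the highest of very many correlations and carry no test.

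Among genes that work with the TLRs, 57 of 87 listed had a probe set by symbol, each represented by its brightest one. In the brachial artery 0 rose and 3 fell in exercised pigs (5.3%, against 1.63% of all probe sets, 0.613% lower): IL10, LY86 and BTK. The median change over the 57 was -0.05. In the internal mammary artery 0 of 57 passed, and in the average 4 rose and 0 fell (7.0%, against 4.68% of all): LGMN, CTSB, LBP and IL6. The difference between the arteries' exercise changes passed for 0 of 57.

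IL10, an anti-inflammatory cytokine, had a lowest, median and highest brachial value of 5.07, 5.26 and 5.47 in exercised pigs, against 5.54, 5.75 and 6.35 in sedentary pigs. The groups did not overlap, as for 0.604% of all probe sets (0.221% lower in exercised pigs), and IL10 fell by 0.55 on the log2 scale (SE 0.13, limma adjusted p = 0.0228). LY86 (MD-1), the partner of the TLR4-like protein CD180, had values of 6.47, 6.73 and 7.16 in exercised and 6.84, 7.39 and 7.50 in sedentary pigs, with overlap between the groups, and fell by 0.50 (SE 0.12, limma adjusted p = 0.0263). BTK, a kinase of B cells and myeloid cells that acts in TLR signalling, fell by 0.55 (SE 0.15, limma adjusted p = 0.0473). The IL10 and BTK probe sets were dim, with mean values of 5.80 and 5.72, and were removed by the filter on the dimmest 33.3% of probe sets. Leaving out each of the 15 pigs in turn, IL10 passed 13 times, LY86 10 times and BTK 5 times. With the brachial arrays fitted alone, without pig in the model, none of the 3 passed (limma adjusted p = 0.0508, 0.0683 and 0.103). The changes there were -0.56, -0.50 and -0.57.

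Some macrophage markers fell in the same comparison. Of 10 measured markers 0 rose and 3 fell in the exercised brachial artery (C1QC, FCER1G and TYROBP), where 0.613% of all probe sets were lower. The others did not pass, among them LAPTM5 (-0.15 ± 0.15) and MARCO, the only one with a positive change (0.13 ± 0.07). The marker mean had a lowest, median and highest of -0.575, -0.34 and -0.087 in exercised and -0.197, 0.102 and 0.803 in sedentary pigs. With that mean as a covariate IL10 gave -0.21 ± 0.11, LY86 -0.20 ± 0.12 and BTK -0.19 ± 0.14, none of which passed (limma adjusted p = 0.54, 0.551 and 0.676). The mean overlapped between exercised and sedentary pigs only from -0.197 to -0.087, so this fit cannot tell it apart from training. In the internal mammary artery the marker mean was -0.321, 0.078 and 0.317 in exercised and -0.184, 0.056 and 0.606 in sedentary pigs. There 0 of 10 markers passed, against 0.596% of all probe sets.

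The genes that rose in the average included 2 endosomal proteases that take part in the cleavage of TLR9 in mice, LGMN (0.34 ± 0.09, limma adjusted p = 0.0245) and CTSB (0.16 ± 0.04, limma adjusted p = 0.0287). LBP, which carries lipopolysaccharide to CD14, rose by 0.27 ± 0.08 (limma adjusted p = 0.0421), while its other probe set gave 0.04 (limma adjusted p = 0.839). The LBP probe set that passed was dim, with a mean value of 4.62, and was removed by the filter on dim probe sets. IL6, a cytokine induced by TLR signalling, had brachial values of 7.47, 8.38 and 8.83 in exercised and 6.11, 7.33 and 7.72 in sedentary pigs. Its internal mammary values were 6.57, 7.67 and 10.93 in exercised and 5.96, 7.24 and 7.39 in sedentary pigs. The groups overlapped in both arteries, and IL6 rose by 1.11 ± 0.33 in the average (limma adjusted p = 0.0479). The averaged change was 1.59 ± 0.46 in the 8 pigs with the first dates and 0.62 ± 0.34 in the 7 with the last, and passed in neither (limma adjusted p = 0.0994 and 0.566). Of 49 cell type markers 2 passed in the average, a share near the 4.68% of all probe sets. They were CD79B, as given above, and the endothelial junction gene CLDN5 (0.35 ± 0.09, limma adjusted p = 0.0197). Their part in these rises was not tested. With training tested on the mean of both arteries in 14 pigs, 0 of these 4 genes passed. With the brachial arrays fitted alone IL6 passed there (1.17 ± 0.24, limma adjusted p = 0.0431). The main fit gave 1.19 ± 0.42 for IL6 in that artery (limma adjusted p = 0.144). With each of the 15 pigs left out in turn CTSB passed 10 times, LGMN 8, LBP 4 and IL6 3 times. LY96, the TLR4 partner MD-2, gave 0.21 ± 0.09 (limma adjusted p = 0.198).

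Between the arteries, 10 of 57 pathway genes were higher and 18 lower in the brachial artery (49.1%, against 54.3% of all probe sets). Some cell type markers differed between the arteries too, where 31.8% of all probe sets were higher in the brachial artery and 22.5% lower. Their part in the pathway differences was not tested. Of the smooth muscle markers 3 of 8 were higher in the brachial artery (DES by 2.11 ± 0.36 and MYL9 by 1.21 ± 0.28 among them) and 1 was lower. Of 5 fibroblast markers only 1 passed, DPT, which was 2.23 ± 0.20 higher, while DCN gave 0.26 ± 0.22 and COL1A2 -0.14 ± 0.07. Of the macrophage markers 4 of 10 were lower (C1QC at -0.69 ± 0.11 and TYROBP at -0.46 ± 0.09 among them) and 1, MARCO, was higher (0.63 ± 0.04), while CD79B gave -0.99 ± 0.19 (limma adjusted p = 7.65e-05). The signalling genes TRAF6 and MAP3K7 (TAK1), which relay the MYD88 signal to NF-κB and AP-1, were lower in the brachial artery by log2 differences of -1.18 ± 0.12 and -0.76 ± 0.04 (limma adjusted p = 6.54e-09 and 4.95e-14). TRAF6 had a lowest, median and highest of 4.89, 5.94 and 6.36 in exercised brachial arteries and 6.32, 7.04 and 7.21 in exercised internal mammary arteries, which overlapped by 1 narrow stretch at 6.32 to 6.36. The AP-1 subunits FOS (-2.11 ± 0.25) and JUN (-0.99 ± 0.09) and the prostaglandin synthase PTGS2 (-1.29 ± 0.26) were lower too. NFKB1 (0.31 ± 0.05) and UNC93B1 (0.25 ± 0.05), which escorts TLR8 and TLR9 to endosomes, were higher in the brachial artery. Their probe sets had mean values of 5.06 and 6.08, below the array medians of 7.13 to 7.28.

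Some of these artery differences depended on the probe set. MYD88 was lower in the brachial artery by its brightest probe set (-0.84 ± 0.12, limma adjusted p = 2.23e-06), while its other probe set gave 0.04 (limma adjusted p = 0.373). CD14 was lower by its brightest probe set (-0.21 ± 0.08, limma adjusted p = 0.0212) and higher by the other (0.29, limma adjusted p = 1.03e-06). TRAF6 gave -0.09 by its other probe set (limma adjusted p = 0.125), and MAP3K7 was lower by both (-0.36 for the other, limma adjusted p = 2.04e-06).

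**Figure D5:**
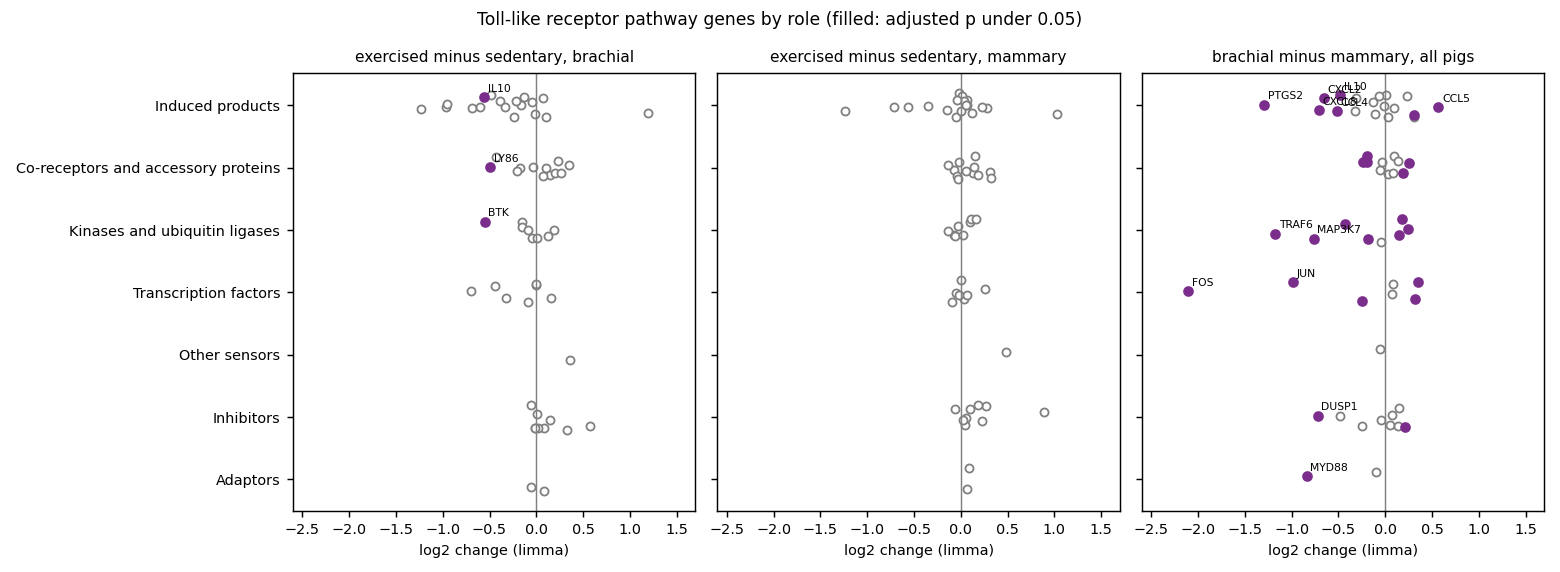
Log2 change (x axis) of the 57 pathway genes by role in 3 comparisons, exercised minus sedentary in each artery and brachial minus internal mammary over all pigs. Filled points passed at an adjusted p under 0.05 and those beyond 0.45 are named. The first 2 panels hold 3 and 0 filled points and the third 28.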

How the data were processed

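The deposited values were log2 probe set intensities made by the authors. Per the submitters' processing notes affy was used, with no version, and the summary, background correction and normalization are not given in the sources used here. Groups follow the titles and tags, against the source name of 8 exercised internal mammary samples, which says sedentary. Control probe sets (124) were left out.

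The package limma 3.58.1, run in R 4.3.3, modelled 23999 probe sets by 4 group means, treating pig as a random block whose consensus correlation was 0.255, and p-values were Benjamini-Hochberg adjusted at 0.05. The labels pair the arteries by pig. The own pair correlated best in 7 of 14 pigs (median 0.19, against -0.023 between pigs). The fit was tested on simulated data. Alternatives were other treatments of pig, a filter on dim probe sets, other scalings, array weights, covariates, the first or last collected pigs, and each pig left out. The setting with pig as a fixed block compared arteries by differences within a pig. For training that setting had no pig term: each artery was fitted alone, and the average used the mean of both arteries of a pig. Named genes were all TLR probe sets, the pathway genes that passed for training, some of those that passed between the arteries, and the 3 genes most like each receptor. Values quoted for other pathway genes (LY96) and other probe sets were chosen after they were seen. Members, lists and tests were chosen with earlier results of these data known.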

Additional observations from a re-analysis of the deposited data

Results flagged for a closer look

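Of 44 groups of TLR values (11 probe sets in 4 groups), 3 held an array that stood apart by the gap to its nearest neighbour, and chance alone gives about 1 in 20 groups. TLR9 was 6.71 in the brachial artery of sedentary pig 12_3, where the next value was 6.06. TLR4 probe set Ssc.28998.1.A1_at was lowest in sedentary pig 15_1 in both arteries, at 5.05 in the brachial (next value 5.28) and 4.78 in the internal mammary artery (next value 5.06).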

How the results depend on the processing

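The number of arrays is among the limits on precision, and no signal over background was at hand. No TLR probe set passed for training under any setting that kept all pigs or split them by date. Without 1 pig the count was 0 to 1 in the internal mammary artery and in the average, and 0 in the brachial artery. Between arteries in exercised pigs the 2 TLR probe sets became 1 with no replicate block, 1 without the dimmest 33.3% of probe sets, 4 with median centring, 1 with quantile normalization and 1 in the 7 last pigs, and 1 to 4 without 1 pig. In sedentary pigs the 2 became 0 with no replicate block, 1 without dim probe sets, 0 with quantile normalization, 0 with the 28S/18S ratio, 4 with the smooth muscle marker mean, 0 in the 8 first and 1 in the 7 last pigs, and 0 to 3 without 1 pig. In the average the 3 became 1 without dim probe sets, which removes TLR9 and Ssc.28998.1.A1_at, and 3 to 4 without 1 pig. There the 8 first pigs lost TLR9 and Ssc.28998.1.A1_at and gained TLR1 probe set Ssc.19704.1.A1_at (limma adjusted p = 0.102, 0.111 and 0.0147). The 7 last pigs lost Ssc.19703.1.S1_s_at and Ssc.28998.1.A1_at and gained TLR8 (limma adjusted p = 0.0648, 0.0889 and 0.0472). The 3 brachial pathway genes became 1 with the brachial arrays fitted alone (IL6, which is not of the 3), 1 without dim probe sets (LY86), 1 with array weights (IL10), 0 with the macrophage marker mean, 5 with the smooth muscle marker mean, and 0 in the first and 0 in the last pigs (0 to 4 without 1 pig). The filter on dim probe sets removes IL10 and BTK. The 0 of the internal mammary artery became 1 with the 28S/18S ratio. The 4 of the average became 7 with no replicate block (IL10 and CCL2 lower), 0 with the mean of both arteries of a pig, 2 without dim probe sets (LBP is removed), 2 with the 28S/18S ratio, 1 with the macrophage marker mean, and 0 in the first and 0 in the last pigs (0 to 4 without 1 pig). Pathway genes between arteries fell to 15 and 15 of 26 in exercised, 8 and 4 of 15 in sedentary and 17 and 16 of 28 in all pigs in the first and the last pigs, which are fewer samples. Causes of the other shifts were not tested. Of 1832 TLR values passing under neither setting, 151 turned sign, none larger than 0.19 as reported. Over all probe sets, brachial training counts ran from 0 to 779 under other settings (392 reported), internal mammary counts from 0 to 337 (143) and averaged counts from 28 to 1996 (1123).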
